A study of Mus musculus with 16 samples.

Results

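Axoglial and paranodal adhesion molecules are the surface and secreted proteins by which myelinating glia and axons hold on to each other. The 10 genes described here were chosen by name from the 32207 genes of the count table, by a rule that uses no measured value, though with earlier results of these data known. They are the neurofascin gene Nfasc, the contactins Cntn1 and Cntn2, the L1-family gene Nrcam, the SynCAM genes Cadm1, Cadm2, Cadm3 and Cadm4, the junctional adhesion molecule gene Jam3, and Lgi3. All 10 were found in the table and all 10 passed the filter on low counts. RNA was sequenced from brain cells of OF-1 mice, an outbred strain, sorted with magnetic beads for O4, a surface antigen of the oligodendrocyte lineage, on postnatal day 16. The 4 groups are male mice exposed to bisphenol A (BPA), male controls, BPA-exposed female mice and female controls, with 4 libraries each. BPA, a plasticizer that can bind estrogen receptors, reached the pups through their mothers' drinking water from gestational day 7 and during lactation. The water held 250 µg/mL per the study's design, which estimates 40 µg/kg/day, and how these figures fit together was not settled. No genetic change is labelled in any group. Litters and batches are not labelled, so littermates could stand in the same group and p-values for BPA may then be too small.

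When an oligodendrocyte wraps an axon, the myelin membrane is joined to the axon by different molecules in different places. At the paranode, where the myelin loops end beside the node of Ranvier, the glial form of neurofascin binds a complex of contactin 1 and Caspr on the axon. At the neighbouring juxtaparanode, contactin 2 on both membranes joins with Caspr2 to hold potassium channels in place. Along the internode, SynCAM proteins of glia and axon face each other, with glial Cadm4 binding axonal Cadm2 and Cadm3 in peripheral nerve. Several of these genes are transcribed by neurons as well as by glia, and a count per gene does not separate the glial from the neuronal form of Nfasc or Nrcam.

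Total counts per library ranged from 23603816 to 42575326, and sex-linked transcripts fitted the sex given on the label in all 16. The label of the sorted cells was checked against marker lists. The 10 myelinating oligodendrocyte markers summed to between 114500 and 162100 CPM in every library, where CPM are counts scaled to a common library total. The 12 neuronal markers stood far lower: the 11 that passed the filter summed to between 172.1 and 282.7 CPM, most of it Map2, with Rbfox3 at a mean of 0.482 CPM and Slc17a7, the marker that did not pass, at 0.168 CPM. Male BPA 2 stood apart, with 6124 CPM over 8 astrocyte markers against 921.9 to 2444 CPM in the other libraries. It also had the lowest sum of myelinating markers. The 8 microglial markers summed to between 480 CPM in male control 1 and 2145 CPM in female BPA 1, above the neuronal sums.

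All 10 genes were well covered in every library, from a minimum of 57.67 CPM for Nrcam to a maximum of 8687 CPM for Nfasc. To compare genes with each other, the authors' normalized counts per kilobase of median transcript length were used. On this scale Nfasc averaged 78890 ± 7180 normalized counts per kilobase (SD, 16 libraries). Cadm4, the SynCAM that glia use to bind axons, followed at 27240 ± 1390 normalized counts per kilobase. Jam3, a junctional adhesion molecule of the immunoglobulin superfamily, stood at 16520 ± 1180 normalized counts per kilobase. Lgi3, a secreted leucine-rich protein of the family that binds ADAM receptors, stood at 14430 ± 998 normalized counts per kilobase. The lowest library of Nfasc lay above the highest of Cadm4, and the lowest of Cadm4 above the highest of Jam3, while the ranges of Jam3 and Lgi3 overlapped.

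The other 6 genes formed a lower tier. Cadm2 averaged 5981 ± 823, Cntn2 4699 ± 1190 and Cntn1 4060 ± 508 normalized counts per kilobase, with overlapping ranges. Cadm1 averaged 2929 ± 450, Nrcam 1926 ± 453 and Cadm3 1722 ± 200 normalized counts per kilobase, again overlapping between neighbours. The highest library of the tier, 7759 normalized counts per kilobase for Cadm2, lay below the lowest of Lgi3, 12390. The order within the tiers depended on the length used. With the summed exon length of the GENCODE M21 annotation, Nfasc at 552 and Cadm4 at 488 CPM per kilobase still led. There Lgi3 with 326 CPM per kilobase stood above Jam3 with 130, Cntn1 with 63.9 above Cntn2 with 52.5 and Cadm2 with 36.3, and Nrcam with 6.68 stood last. The median transcript length of Jam3 was 0.863 kb against 3.2 kb of summed exons, and that of Nrcam 1.586 kb against 13.36 kb.

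**Figure D1:**
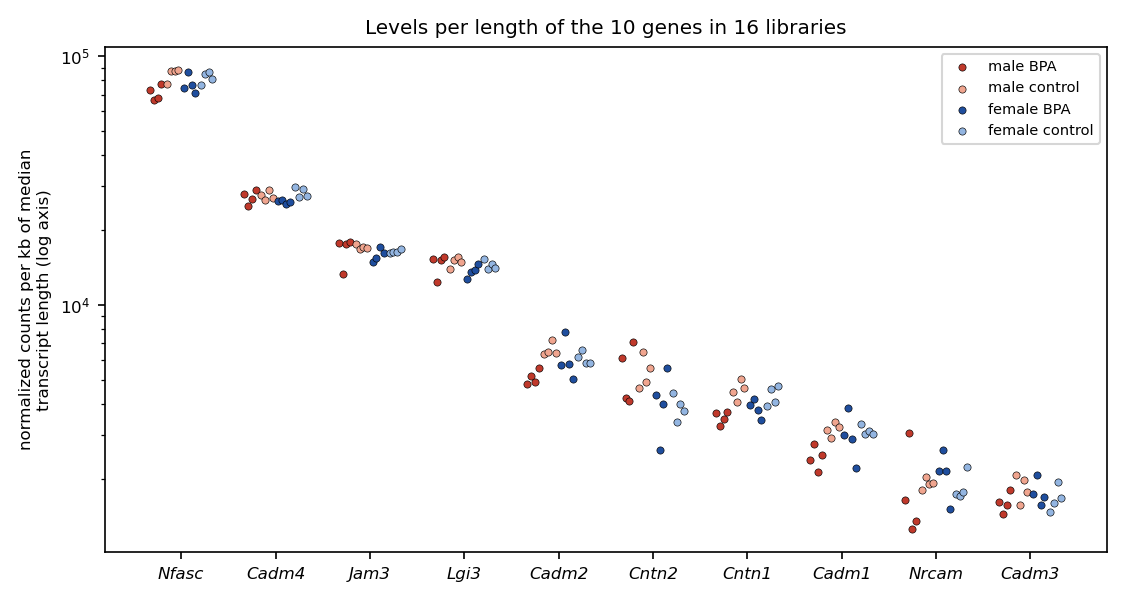
Level of each gene in each of the 16 libraries, in the authors' normalized counts per kilobase of median transcript length on a log axis, with colours for the 4 groups. Nfasc (66450 to 88010) lies above Cadm4 (25010 to 29760), Jam3 and Lgi3 lie between 12390 and 17870, and the other 6 genes lie no higher than 7759.

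Little of the exact transcript sequence of these genes is shared with other genes, while the assignment of the reads themselves was not examined. Nfasc, Cadm1, Cadm4, Jam3 and Lgi3 share no 50-base stretch of transcript with another gene, and Cntn1, Cntn2, Cadm2 and Nrcam share less than 1% of theirs. Cadm3 shares 3.99%, all of it with Ackr1, whose exons overlap 4.98% of those of Cadm3 on the same strand, and Ackr1 itself stood at 7.283 CPM. The antisense gene Gm48796 overlaps 36.2% of the exon bases of Jam3 and stood at 0.5761 CPM. The libraries keep strand, but the strand setting of the counting is not given in the sources used here.

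Promoter windows from RefSeq, 250 bases before to 50 bases after a start, were read on the GRCm38.p6 build for every gene of the 10 that has one. Those printed belong to genes whose levels lay lower in BPA males, as described further on. The windows are used only for their letters, since the counts were made on mm39. Whether these letters bear on the BPA values was not tested. Of the 10 genes, 7 have 10 windows in all, and Cadm1, Jam3 and Lgi3 have none. The windows of Nfasc and Cadm2 and the first of Cntn1 are printed here 5′ to 3′ on the gene's own strand. Capitals mark the core bound by estrogen receptors, GGTCA, or TGACC where it lies on the opposite strand. They also mark the E-box CAGCTG bound by basic helix-loop-helix factors. Nfasc lies on chromosome 1 on the minus strand, with an upstream start at chr1:132707277-132707576 and an internal start at chr1:132642809-132643108. Cntn1 lies on chromosome 15 on the plus strand, and its first window is chr15:92050915-92051214. Its other windows, chr15:92127878-92128177 and chr15:92161107-92161406, are not printed and hold neither GGTCA nor CAGCTG on either strand. Cadm2 lies on chromosome 16 on the minus strand, at chr16:67620859-67621158.
Nfasc upstream start: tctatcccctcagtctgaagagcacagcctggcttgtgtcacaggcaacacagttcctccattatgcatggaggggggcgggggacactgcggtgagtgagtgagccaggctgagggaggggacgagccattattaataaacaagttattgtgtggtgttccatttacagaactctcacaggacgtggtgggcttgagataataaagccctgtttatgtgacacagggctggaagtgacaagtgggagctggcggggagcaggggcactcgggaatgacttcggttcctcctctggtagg
Nfasc internal start: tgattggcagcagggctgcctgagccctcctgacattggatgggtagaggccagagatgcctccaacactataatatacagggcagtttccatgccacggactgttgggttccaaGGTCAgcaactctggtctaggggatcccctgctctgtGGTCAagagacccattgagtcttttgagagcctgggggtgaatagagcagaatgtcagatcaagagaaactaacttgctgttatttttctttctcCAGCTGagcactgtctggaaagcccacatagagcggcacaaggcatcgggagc
Cntn1 first start: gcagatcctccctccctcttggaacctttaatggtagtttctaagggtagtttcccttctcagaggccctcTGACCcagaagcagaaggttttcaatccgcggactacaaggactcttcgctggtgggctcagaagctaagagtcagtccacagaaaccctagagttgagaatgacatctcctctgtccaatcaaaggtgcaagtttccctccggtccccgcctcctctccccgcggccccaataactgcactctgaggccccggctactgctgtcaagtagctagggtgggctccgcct
Cadm2 start: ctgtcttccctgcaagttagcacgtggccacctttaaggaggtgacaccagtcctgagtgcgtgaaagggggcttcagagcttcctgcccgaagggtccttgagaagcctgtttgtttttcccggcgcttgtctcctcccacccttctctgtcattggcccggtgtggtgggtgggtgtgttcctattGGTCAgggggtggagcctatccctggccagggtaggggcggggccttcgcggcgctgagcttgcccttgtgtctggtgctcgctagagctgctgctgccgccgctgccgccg

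The core GGTCA, searched on both strands, was found in 3 of the 10 windows, 1 each of Cntn1, Cadm2 and Nfasc, and in 40.5% of all 32851 mouse promoter windows. The internal Nfasc window holds it at 2 places and is the only one of the 10 with CAGCTG, which 16.3% of all windows hold. No window of these genes holds the palindrome of GGTCA and TGACC with any 3 bases between (0.07% of all windows), the SOX core ACAAAG (18.7%) or the core CTGGCAC of the oligodendrocyte factor MYRF (5.01%). The GC box GGGCGG was found in 4 windows, those of Cadm2, Cadm4, Nrcam and the upstream start of Nfasc, against 35.7% of all windows. The windows of Cadm4 and Nrcam were the richest in G and C, at 77% and 74% with 40 and 37 CpG pairs, against a median of 52.7% and 7 CpG pairs over all windows. The upstream Nfasc window had 54.3% and the internal one 52%.

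In males, the question was whether these genes differ after early BPA exposure. All 10 genes had a log2 fold change below 0, with a median of -0.185, against a median of 0.00882 and 47.5% below 0 over all 16339 genes tested. None passed the test (limma-voom, Benjamini-Hochberg adjusted over all genes), by which 0.00612% of all genes were called, and none was called by limma-trend. Nfasc, Cntn1, Cadm1 and Cadm2 had an unadjusted p under 0.05, as did 7.96% of all genes. The same 4 genes had every BPA library below every control, as did 2.83% of all genes. In sorted bulk RNA, fewer cells that make a transcript and less of the transcript per cell cannot be told apart.

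Nfasc, the glial partner of the paranodal complex, had 7191, 6634, 6715 and 7662 CPM in BPA males and 7734, 8687, 8634 and 8677 CPM in male controls. The highest BPA male lay just under the lowest control male, and the other 3 controls lay close together. The log2 fold change was -0.26 ± 0.07 (SE; limma-voom unadjusted p 0.00298, adjusted 0.384). Cntn1, which encodes the contactin of the axonal paranodal complex and is also transcribed in the oligodendrocyte lineage, had 542.5, 486, 516.2 and 550.6 CPM in BPA males and 665.5, 602.5, 744.5 and 682.3 CPM in male controls. The groups did not overlap. Its log2 fold change was -0.36 ± 0.08 (SE; limma-voom unadjusted p 0.000502, adjusted 0.271), and it ranked 29 of 16339 genes by p.

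Cadm1 and Cadm2, immunoglobulin-like adhesion proteins of the SynCAM family, followed the same order. Cadm1 had 133.4, 157.6, 120.2 and 140.6 CPM in BPA males and 179.2, 165.7, 191.3 and 180.8 CPM in male controls. Its groups did not overlap, and the log2 fold change was -0.38 ± 0.12 (SE; limma-voom unadjusted p 0.0072, adjusted 0.45). Cadm2 had 282.7, 311.4, 289.4 and 330.1 CPM in BPA males and 378.9, 383.8, 429.8 and 380.9 CPM in male controls. Every BPA male was below every control by a clear gap, with a log2 fold change of -0.38 ± 0.10 (SE; limma-voom unadjusted p 0.00214, adjusted 0.372). When any 1 of the 16 libraries was omitted, the log2 fold changes stayed between -0.30 and -0.23 for Nfasc, -0.41 and -0.31 for Cntn1, -0.45 and -0.31 for Cadm1 and -0.41 and -0.34 for Cadm2. The count of genes with separate groups was 4 in 19 of 21 alternatives and 5, with Nrcam, where male BPA 2 was left out.

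Most markers of earlier oligodendrocyte stages also had lower fitted levels in BPA males, though the list sums overlapped with those of male controls. Of 10 markers of committed and newly formed oligodendrocytes, 8 had a log2 fold change below 0 in males (median -0.245, 4 with an unadjusted p under 0.05, none called), and their summed level was 7348 to 9204 CPM in BPA males and 8910 to 11110 CPM in male controls. Of 10 precursor markers, 9 lay below 0 (median -0.283), with 3042 to 3586 CPM in BPA males and 3305 to 3787 CPM in male controls. Olig1 alone averaged 1952 CPM of such sums over all libraries, and the BPA male at 3586 CPM was male BPA 2. The mean log2 CPM of the list, in which each marker counts alike, was 6.6485 to 6.876 in BPA males. In male controls it was 6.8744 to 7.3106. Of 10 myelinating markers, 9 lay above 0 (median 0.0575), with 114500 to 162100 CPM in BPA males and 134600 to 151600 CPM in male controls. No marker of these 3 lists was at 0 CPM in any library. Of 11 neuronal markers, 10 lay below 0 (median -0.229), with 172.1 to 225 CPM in BPA males and 206.8 to 239.5 CPM in male controls. All 8 microglial markers lay above 0 (median 0.44), with 591.2 to 1216 CPM in BPA males and 480 to 1398 CPM in male controls. All 8 astrocyte markers lay above 0 as well (median 0.171), with 921.9 to 6124 CPM in BPA males and 1241 to 2286 CPM in male controls. Of 6 endothelial markers 3 lay below 0 (median -0.00337). None of these 4 lists had a marker called or at an unadjusted p under 0.05. The part of stage composition, or of these other cell types, in the lower levels of Nfasc, Cntn1, Cadm1 and Cadm2 was not tested.

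The other 6 genes overlapped between BPA and control males. Cadm3, an axonal partner of Cadm4 in nerve, had 117.6, 106.4, 114.6 and 131.9 CPM in BPA males and 153.1, 115.1, 145 and 129.2 CPM in male controls, with a log2 fold change of -0.20 ± 0.11 (SE). Cntn2, the juxtaparanodal contactin, had 627.3, 444.4, 426.9 and 736.6 CPM in BPA males and 484, 672.9, 508.1 and 576.5 CPM in male controls. The BPA males were spread on both sides of the controls, and the log2 fold change of -0.04 ± 0.21 (SE) had a 95% interval from -0.49 to 0.42. Cadm4, Jam3 and Lgi3 had log2 fold changes of -0.02 ± 0.05, -0.05 ± 0.08 and -0.04 ± 0.07 (SE). Their 95% intervals ran from -0.13 to 0.09, from -0.21 to 0.11 and from -0.19 to 0.12, and the sign of each turned positive without male BPA 2.

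Nrcam, an L1-family protein of nodes and axons, depended on that library most. It had 75.56, 142.1, 57.67 and 62.38 CPM in BPA males and 83.88, 94.3, 88.21 and 88.81 CPM in male controls. Male BPA 2 lay above all controls, and the other 3 BPA males lay below all controls. The log2 fold change was -0.17 ± 0.22 (SE) with all libraries and -0.45 without male BPA 2 (limma-voom unadjusted p 0.00911, adjusted 0.308). Without male BPA 3 it was -0.02.

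**Figure D2:**
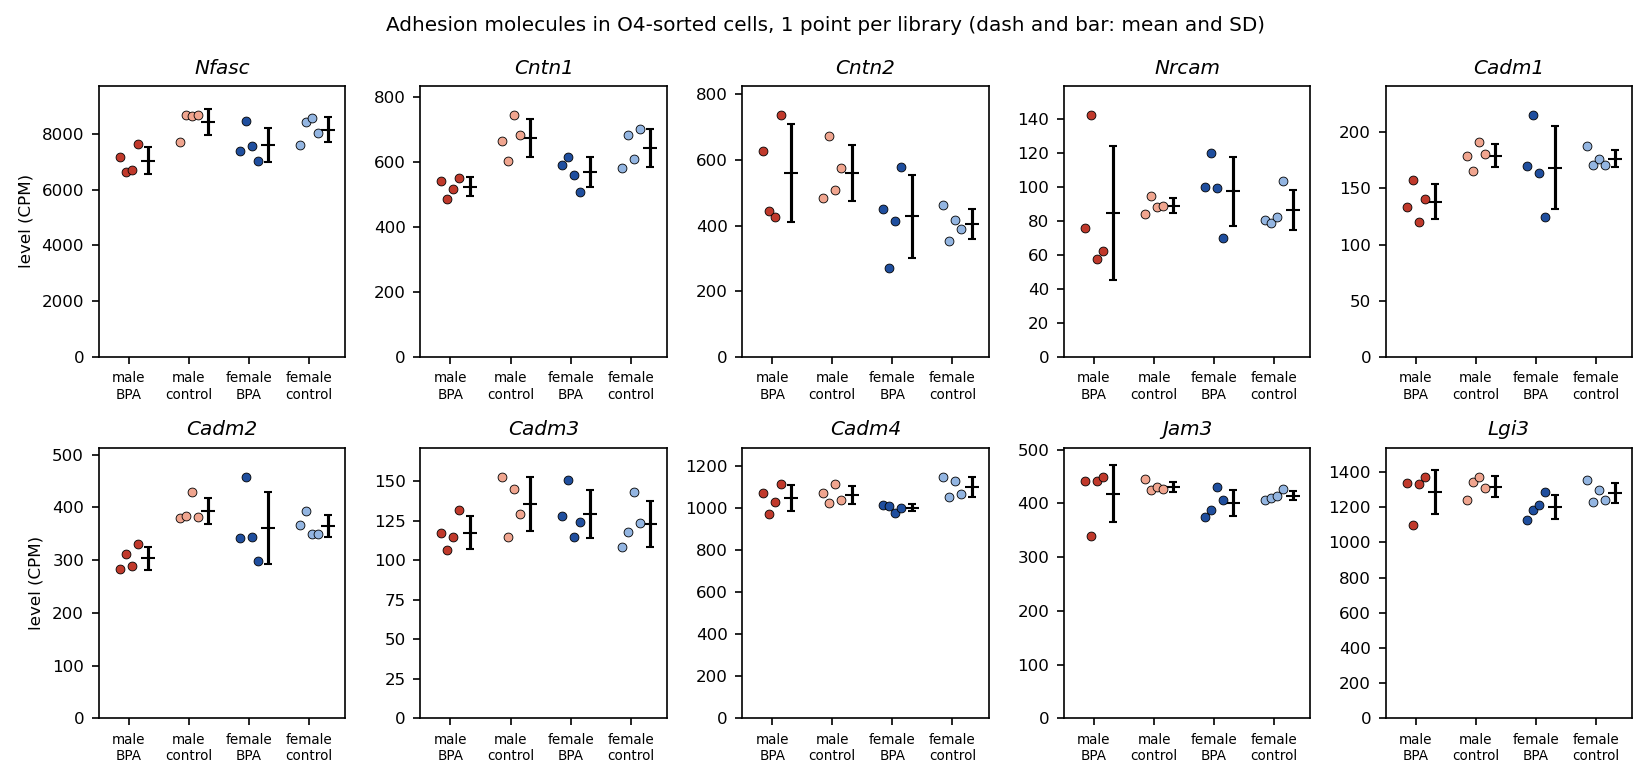
Level in CPM of each of the 10 genes, 1 point per library, in BPA and control males (red shades) and BPA and control females (blue shades), with the mean and SD of each group of 4 beside the points; all axes start at 0. The BPA males lie below the male controls without overlap for Nfasc, Cntn1, Cadm1 and Cadm2, and 1 BPA male stands high for Nrcam at 142.1 CPM and low for Jam3 at 339.3 CPM.

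In females, the same question gave 7 of 10 genes below 0, with a median log2 fold change of -0.0719 against 0.00188 over all genes, of which 49.4% lay below 0. No gene of the 10 was called by limma-voom or limma-trend, as none of all genes was (0%). Cntn1 and Cadm4 had an unadjusted p under 0.05, as did 4.55% of all genes. Cadm4 was the 1 gene with every BPA female below every control female, as were 2.06% of all genes. Cadm4 had 1017, 1013, 978.1 and 1003 CPM in BPA females and 1152, 1053, 1132 and 1067 CPM in female controls. The BPA females lay close together just below the controls, at a log2 fold change of -0.13 ± 0.05 (SE; limma-voom unadjusted p 0.0259, adjusted 0.999). Omitting any 1 library kept it between -0.14 and -0.10. Of the 10 myelinating markers, 8 lay below 0 in females (median -0.0492), and their sum was 126800 to 147000 CPM in BPA females and 133800 to 148800 CPM in female controls, and its part in the value of Cadm4 was not tested.

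Cntn1 had 589.5, 616.6, 559 and 508.2 CPM in BPA females and 581.7, 683.1, 607.6 and 702.5 CPM in female controls. The groups overlapped, and the log2 fold change was -0.18 ± 0.08 (SE; limma-voom unadjusted p 0.044, adjusted 0.999). With median-of-ratios factors the limma-voom unadjusted p was 0.0554. With 1 library omitted the log2 fold change ran from -0.22 to -0.12, the value nearest to 0 coming without female BPA 4 (limma-voom unadjusted p 0.195). Nfasc had 7384, 8471, 7566 and 7031 CPM in BPA females and 7604, 8449, 8570 and 8031 CPM in female controls. Female BPA 2 reached the control range while the other 3 BPA females lay below it, at a log2 fold change of -0.10 ± 0.07 (SE). Cadm2 had 342.3, 458.4, 344.3 and 298.2 CPM in BPA females and 366.6, 393.6, 350.2 and 350 CPM in female controls. Again female BPA 2 lay above every control and the other 3 below every control. Cadm1 showed the same arrangement with 170.4, 215.4, 163.4 and 124.7 CPM in BPA females and 187.8, 170.9, 176.4 and 171.3 CPM in female controls.

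The log2 fold changes of Cadm1 and Cadm2 in females were -0.10 ± 0.12 and -0.04 ± 0.10 (SE). Without female BPA 2 they were -0.22 and -0.15, and without female BPA 4 they were 0.05 and 0.06. With the scaling recomputed without female BPA 2, the genes with separate groups in females were Nfasc, Cadm2 and Cadm4, while Cadm1 just overlapped, at up to 170.2 CPM in BPA females and from 170.1 CPM in female controls. Without female BPA 4 they were Cadm4 and Lgi3. Female BPA 2 also had the highest precursor list mean of all libraries, 7.42 log2 CPM, and female BPA 4 the lowest, 6.51. Of 10 precursor markers, 8 had a log2 fold change above 0 in females (median 0.158), and the list summed to 2775 to 3607 CPM in BPA females and 3132 to 3398 CPM in female controls. The part of the precursor list in the values of Cadm1 and Cadm2 was not tested.

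The remaining genes overlapped between BPA and control females. Cntn2 had 451.5, 269.7, 413 and 578.4 CPM in BPA females and 462.1, 353.2, 417.6 and 389.5 CPM in female controls, so that the BPA females held both the lowest and the highest value. Nrcam had 99.75, 119.8, 99.11 and 69.98 CPM in BPA females and 80.5, 78.85, 82.35 and 103.6 CPM in female controls, with a log2 fold change of 0.15 ± 0.22 (SE). Cadm3 had 128.2, 150.7, 115 and 124.2 CPM in BPA females and 108.4, 117.7, 143 and 123.9 CPM in female controls, a log2 fold change of 0.07 ± 0.11 (SE). None of these 3 separated the groups. Jam3 stood at 375.5 to 430.9 CPM in BPA females and 406.4 to 426.4 CPM in female controls. Lgi3 stood at 1128 to 1288 CPM in BPA females and 1229 to 1353 CPM in female controls, with a log2 fold change of -0.09 ± 0.07 (SE).

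**Figure D3:**
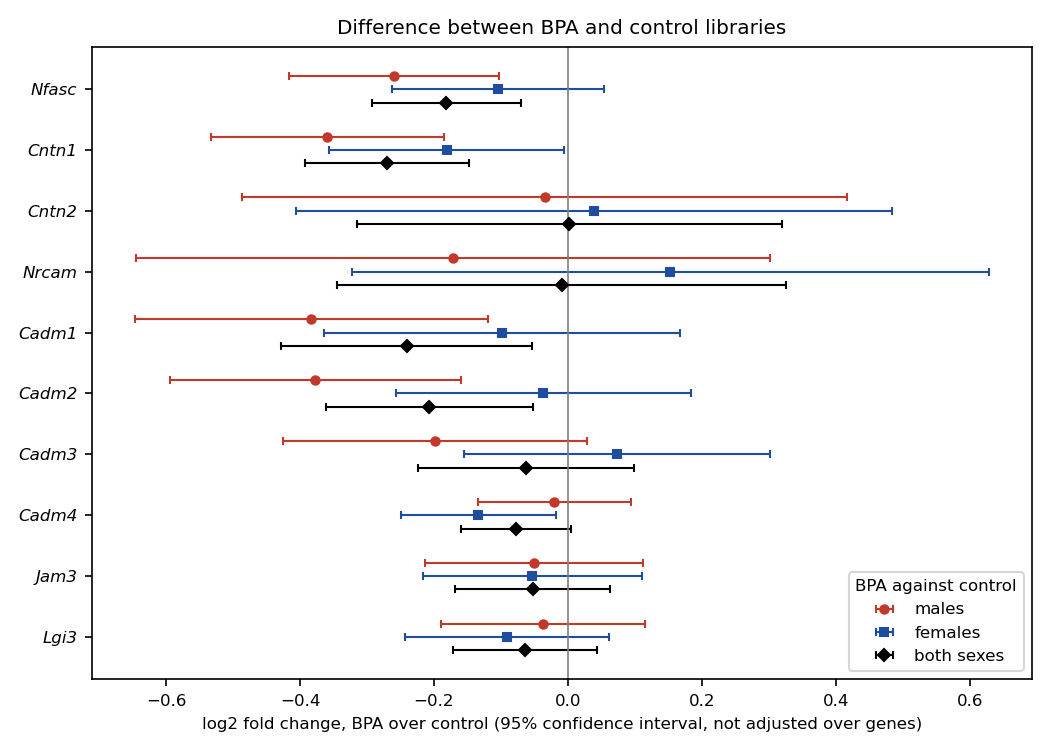
Log2 fold change of BPA over control for each gene in each sex and averaged over the sexes, with 95% confidence intervals that are not adjusted over genes. The male intervals of Nfasc, Cntn1, Cadm1 and Cadm2 lie below 0, as do the female intervals of Cntn1 and Cadm4, while Cntn2 and Nrcam have the widest intervals.

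Over both sexes, 9 of 10 genes lay below 0, with a median log2 fold change of -0.0705. Over all genes the median was 0.00296, and 48.8% lay below 0. None was called by limma-voom or limma-trend, against 0.0184% of all genes called by limma-voom, and 4 had an unadjusted p under 0.05, as did 7.69% of all genes. Cntn1 averaged 546.1 ± 43.1 CPM in 8 BPA libraries and 658.7 ± 56.3 CPM in 8 controls (SD). The ranges overlapped, and the log2 fold change was -0.27 ± 0.06 (SE; limma-voom unadjusted p 0.000299, adjusted 0.203), rank 23 of 16339 by p. Nfasc averaged 7332 ± 591 CPM in BPA libraries and 8298 ± 443 CPM in controls (SD), at a log2 fold change of -0.18 ± 0.05 (SE; limma-voom adjusted p 0.334). Cadm1 and Cadm2 had -0.24 ± 0.09 and -0.21 ± 0.07 (SE; limma-voom adjusted p 0.506 and 0.488). These fold changes draw on the same libraries as those of each sex and are not separate evidence.

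The female minus the male log2 fold change tests for a difference between the sexes in the response to BPA. It was above 0 for 7 of 10 genes, with a median of 0.168 against -0.0151 over all genes, of which 53.7% lay below 0. No gene of the 10 was called by limma-voom or limma-trend, and none of all genes was (0%). Of 10 precursor markers 9 lay above 0 as well (median 0.467, 3 with an unadjusted limma-voom p under 0.05). So did 8 of 10 committed and newly formed markers (median 0.281, 3 with such a p). Of 10 myelinating markers 9 lay below 0 (median -0.14), as did all 8 microglial markers (median -0.347). No marker was called, and the part of these lists in the differences was not tested. Cadm2 had an unadjusted p under 0.05, as did 4.72% of all genes, with a log2 fold change of -0.04 in females and -0.38 in males. The difference was 0.34 ± 0.15 (SE; limma-voom unadjusted p 0.033, adjusted 0.999), and 0.23 without female BPA 2. The differences for Cntn1 and Nfasc were 0.18 ± 0.12 and 0.16 ± 0.10 (SE), so the larger male values do not show an effect particular to males. For Nrcam the difference was 0.33 ± 0.31 (SE), and 0.61 without male BPA 2 (limma-voom unadjusted p 0.00985, adjusted 0.487). Without male BPA 3 it was 0.18.

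Among controls, female and male mice were compared for the same genes. Of the 10 genes, 9 lay below 0, with a median log2 fold change of -0.0534. Over all genes the median was 0.000638, and 49.6% lay below 0. None was called by limma-voom or limma-trend, against 0.0551% of all genes called by limma-voom. Cntn2 was the 1 gene with an unadjusted p under 0.05, as 2.91% of all genes had, and the 1 gene with every female control below every male control, as 1.22% of all genes had. Its 462.1, 353.2, 417.6 and 389.5 CPM in female controls stood against 484, 672.9, 508.1 and 576.5 CPM in male controls. The gap between the groups was small, with a log2 fold change of -0.46 ± 0.21 (SE; limma-voom unadjusted p 0.0436, adjusted 1). The other 9 genes had log2 fold changes between -0.13 and 0.05. All 8 microglial markers lay above 0 in this comparison (median 0.615), and 9 of 10 precursor markers lay below 0 (median -0.182). None of these markers was called, and their part in the values of the 10 genes was not tested.

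The genes differed in how much they varied over the 16 libraries, all 4 groups together. On this measure Cadm4 had the lowest coefficient of variation, 5.13%, followed by Lgi3 with 6.71% and Jam3 with 6.96%. Cntn2 with 25.1% and Nrcam with 23.7% varied most. Within the controls Jam3 varied less than Cadm4, with 2.15% against 3.87% in males and 2.09% against 4.4% in females. To describe what the variation within groups went with, each gene was correlated with 7 marker lists over the 16 libraries after group means were taken out, and p-values from permutation within groups were adjusted over the 70 pairs. The pair of Nrcam with the myelinating list passed, with a Pearson r of -0.901 (permutation p 0.0007, adjusted 0.049). Its Spearman rho of -0.774 did not pass (permutation p 0.0031, adjusted 0.0628). Without male BPA 2 and male BPA 3, the libraries farthest from the list's median, r was -0.683 (permutation p 0.0123, adjusted 0.22), so the call rests on those libraries.

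No other pair passed, and the smallest adjusted permutation p of Spearman's rho over the 70 pairs was 0.0628. Jam3 and Lgi3 had a Pearson r of 0.91 and 0.837 with the myelinating list (permutation p 0.0286 and 0.0125, adjusted 0.105 and 0.103). Without the same 2 libraries r was 0.678 and 0.583. Cadm1 and Cadm2 had 0.807 and 0.808 with the precursor list (adjusted permutation p 0.103 for both), and 0.399 and 0.428 without female BPA 2 and 4. Cntn2 ran the other way, at -0.713 with the precursor list (adjusted permutation p 0.105), and -0.367 without these libraries. Cntn1 and Cadm3 had 0.75 and 0.724 with the committed and newly formed list (adjusted permutation p 0.0805 and 0.0978), and 0.666 and 0.803 without female BPA 2 and 4. Nfasc had 0.674 with that list (adjusted permutation p 0.105), and 0.449 without them. Spearman's rho was 0.791 for Jam3 and 0.715 for Lgi3 with the myelinating list, 0.632, 0.415 and -0.609 for Cadm1, Cadm2 and Cntn2 with the precursor list, and 0.75, 0.791 and 0.556 for Cntn1, Cadm3 and Nfasc with the committed list. With neuronal markers, whose summed level was low throughout, Nfasc and Cntn1 had an r of 0.03 and 0.04, Nrcam of 0.65 and Lgi3 of -0.822 (adjusted permutation p 0.93, 0.92, 0.148 and 0.0805). Without female BPA 2 and male BPA 2 these r values were -0.0631, 0.123, 0.0791 and -0.762. With the astrocyte list Nrcam had 0.823 (adjusted permutation p 0.103), and 0.464 without male BPA 2 and 4. Lgi3 and Cadm4 had -0.713 and -0.696 with it (adjusted permutation p 0.162 and 0.105), and -0.167 and -0.395 without these libraries. Nfasc had -0.632 with the endothelial list (adjusted permutation p 0.103), and -0.683 without female control 4 and male BPA 2. Cadm3 had -0.663 with the microglial list (adjusted permutation p 0.105), and -0.675 without female BPA 1 and male control 2.

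**Figure D4:**
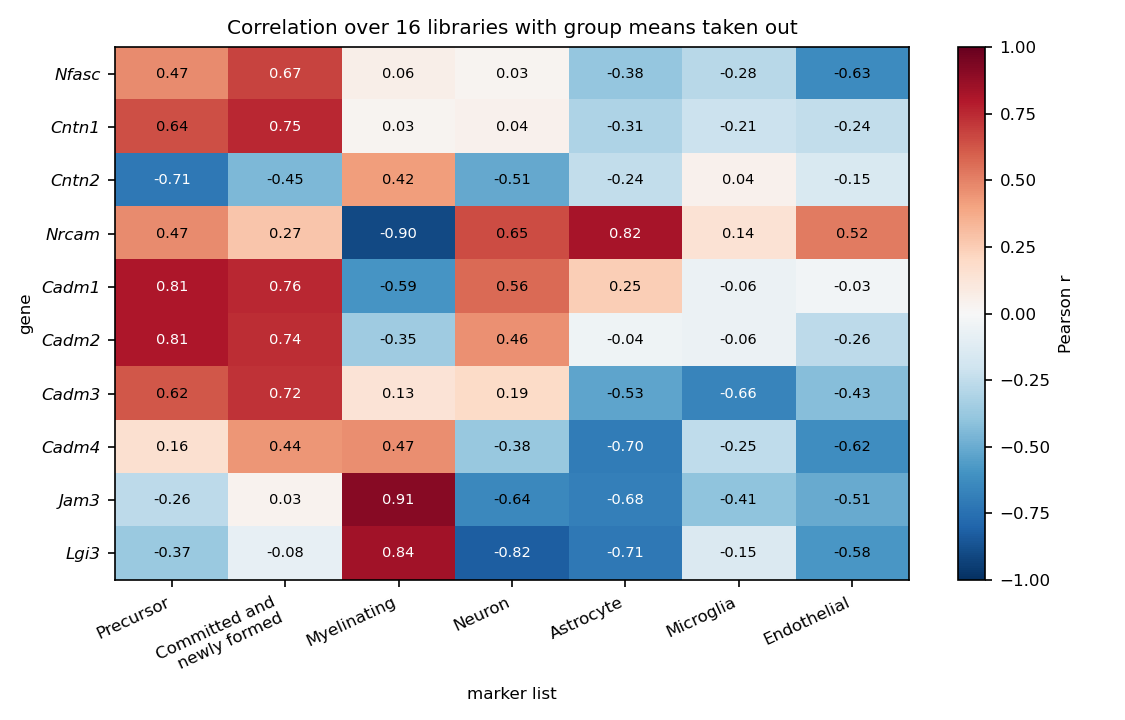
Pearson r of each gene (rows) with the mean log2 CPM of each of 7 marker lists (columns) over 16 libraries with group means taken out, from -1 in blue to 1 in red. Jam3 and Lgi3 are positive and Nrcam negative with the myelinating list, and Nfasc, Cntn1, Cadm1, Cadm2 and Cadm3 are positive with the committed and newly formed list.

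**Figure D5:**
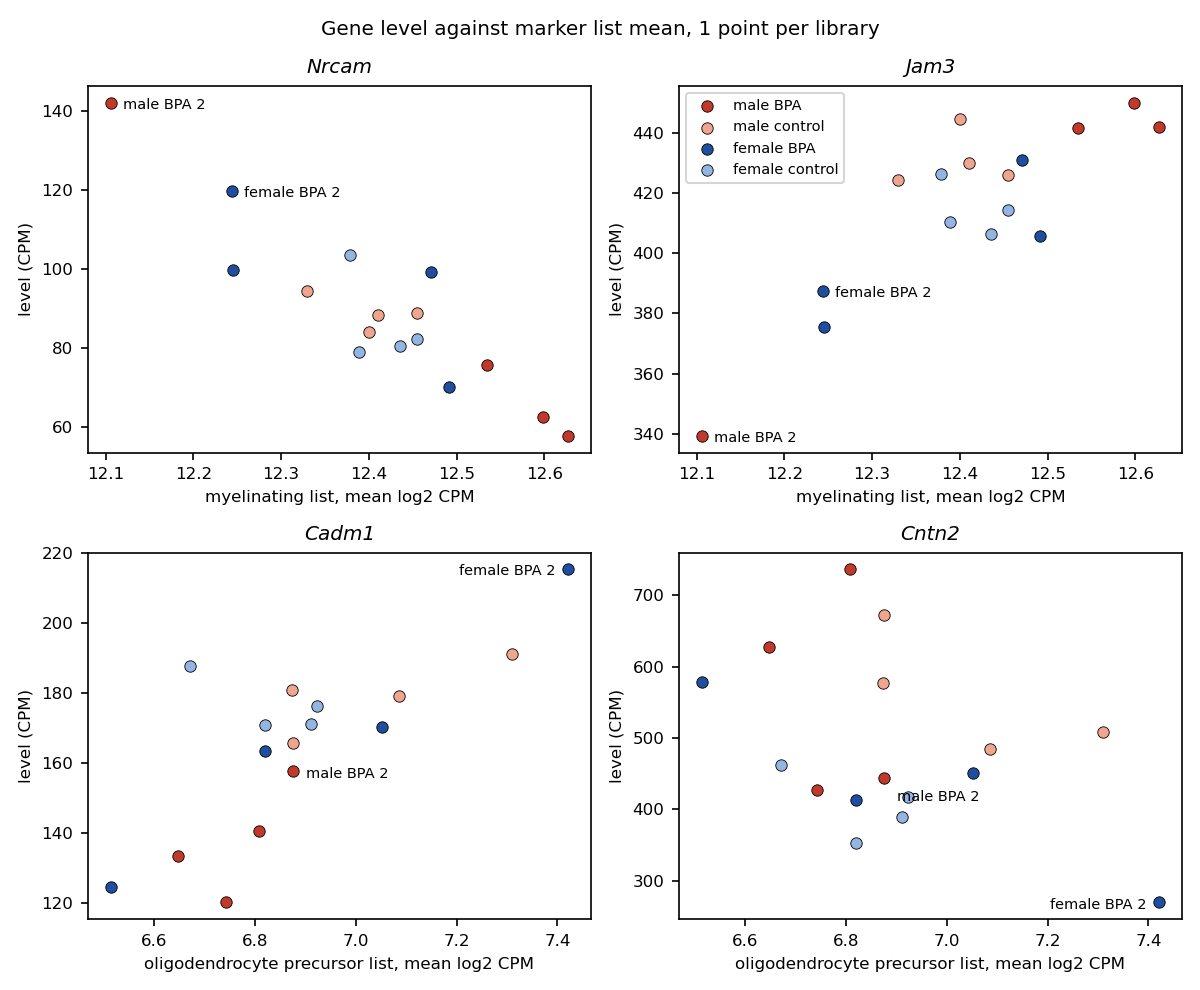
Level in CPM of Nrcam and Jam3 against the myelinating list and of Cadm1 and Cntn2 against the precursor list (mean log2 CPM), 1 point per library in the colour of its group, group means left in. Male BPA 2 lies at the low end of the myelinating list, at 12.1, and female BPA 2 at the high end of the precursor list, at 7.42.

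Among themselves the 10 genes form 45 pairs, and none passed after adjustment over them. Cadm1 and Cadm2 had the highest Pearson r, 0.826 (permutation p 0.0216, adjusted 0.313), with a Spearman rho of 0.674 and an r of 0.461 without female BPA 2 and 4. The genes most like each of them were looked up among the 8931 other genes that average 10 CPM or more, by Pearson r over the 16 libraries with group means taken out. For Nfasc these were Plxnb3 (0.868), Ppm1l (0.852) and Tshz1 (0.851), and for Cntn1 they were Parvb (0.866), Tmem178 (0.861) and Cd9 (0.853). Cntn2 was most like Prob1 (0.913), Il17ra (0.911) and Wipi1 (0.91). Cadm1 was most like Lhfpl2 (0.91), Csmd1 (0.899) and Zfp516 (0.896), and Cadm2 was most like Sez6l (0.9), Zfp469 (0.881) and Ptpre (0.876). Cadm3 was most like Pcdh15 (0.915), Atcay (0.883) and Ptprn (0.867), and Cadm4 was most like Eif4a3 (0.856), Psmc4 (0.838) and Lsm14a (0.834). No gene among the nearest 3 of these 7 was itself one of the 10.

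For Jam3, Nrcam, Lgi3 and Cadm4 the values without male BPA 2 are given for the gene named first. Jam3 was most like Pak1 (0.949, and 0.776 without male BPA 2), Phyhipl (0.945) and Snx6 (0.943). Nrcam was most like Farp1, Mtss1l and Csgalnact1, each at 0.97, and Farp1 was at 0.911 without that library. Lgi3 was most like Gclc (0.952, and 0.919 without it), Trip4 (0.917) and Cep72 (0.914). Eif4a3, the nearest gene of Cadm4, was at 0.779 without it. These r values are the highest of many and describe likeness in these libraries only.

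Genes that work with the 10 were taken from 8 lists of 62 partners, of which 60 passed the filter, all but Gldn and Cntn5. None was called in any of the 5 comparisons by limma-voom, with 3 of the 60 at an unadjusted p under 0.05 over both sexes (7.69% of all genes), 6 for the difference between the sexes (4.72% of all genes) and 1 among controls (2.91% of all genes). In males 6 of the 60 had an unadjusted p under 0.05, against 7.96% of all genes, and 5 had every BPA library below every control, against 2.83% of all genes. The median log2 fold change was -0.0304. In females 4 had an unadjusted p under 0.05, against 4.55% of all genes, and 1, Magi1, had every BPA library below every control, against 2.06% of all genes, with a median of 0.0337. Among paranodal and juxtaparanodal partners, 6 of 14 lay below 0 in males. Epb41l2, a band 4.1 protein that ties membrane proteins to the cytoskeleton, had 434.1 to 519.7 CPM in BPA males and 604.1 to 626.7 CPM in male controls, at a log2 fold change of -0.35 ± 0.09 (SE; limma-voom adjusted p 0.358). Its female value was 0.03 ± 0.09. Ank2 and Ank3, ankyrins that tie membrane proteins to the spectrin skeleton, had 0.21 ± 0.10 and -0.02 ± 0.10 in males and 0.06 ± 0.10 and -0.18 ± 0.10 in females.

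Among 8 cytoplasmic scaffolds, 7 lay below 0 in males and 4 in females. Cask, a scaffold that binds SynCAM tails, had 93.52 to 99.75 CPM in BPA males and 110.2 to 125.3 CPM in male controls (log2 fold change -0.27 ± 0.09 SE, limma-voom adjusted p 0.45). Magi1 had 54.13 to 79.34 CPM in BPA females and 84.25 to 92.87 CPM in female controls (log2 fold change -0.39 ± 0.12 SE, limma-voom adjusted p 0.999), and -0.06 ± 0.12 in males. Dlg1 had -0.14 ± 0.09 in males and -0.10 ± 0.09 in females. Among 6 synaptic adhesion genes, all 6 lay below 0 in males (median -0.0766), as did 47.5% of all genes. All 6 lay above 0 in females (median 0.142), where 49.4% of all genes lay below 0. None of them was called. All 6 also lay below 0 for female against male controls (median -0.114), as did 49.6% of all genes, and both BPA values are measured against these controls. Nlgn2, a postsynaptic neuroligin, had 195.5 to 229 CPM in BPA males and 239.8 to 286.6 CPM in male controls. Nlgn1 had 30.39 to 41.18 CPM in BPA females and 26.35 to 33.52 CPM in female controls, and Nrxn3 4.943 to 7.385 CPM in BPA females and 4.402 to 5.538 CPM in female controls.

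Of 9 nodal and perinodal matrix genes tested, 5 lay below 0 in males and 1 in females. Tnr, the matrix protein tenascin R, had 932.5 to 1201 CPM in BPA males and 1387 to 1666 CPM in male controls (log2 fold change -0.47 ± 0.16 SE, limma-voom adjusted p 0.462). Spock1 had 2.191 to 10.96 CPM in BPA males and 10.24 to 12.22 CPM in male controls. Omg, the oligodendrocyte myelin glycoprotein, had log2 fold changes of 0.20 ± 0.10 in males and 0.04 ± 0.10 in females. Among relatives of Lgi3 and the ADAM receptors, Lgi2 stood at 0.9496 to 1.407 CPM in BPA males and 1.712 to 1.893 CPM in male controls (log2 fold change -0.67 ± 0.19 SE, limma-voom adjusted p 0.384). Adam23, a receptor of LGI proteins, had 0.01 ± 0.10 in males and 0.15 ± 0.09 in females, and Lgi1 stood at 2.143 to 21.23 CPM in BPA males and 2.458 to 5.764 CPM in male controls.

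The L1 and contactin relatives and the enzymes of paranodal galactolipids showed small or scattered values. Cntn3 ranged from 0.4979 to 46.99 CPM in BPA males, against 28.76 to 38.75 CPM in male controls, so its log2 fold change of -1.63 ± 0.92 (SE) rests on a wide spread. Chl1 had 8.194 to 40.95 CPM in BPA males and 10.54 to 17.27 CPM in male controls, and L1cam 2.711 to 4.498 CPM in BPA females and 2.569 to 3.189 CPM in female controls. Gal3st1, which makes sulfatide, had 414.5 to 495.9 CPM in BPA females and 491.1 to 538.7 CPM in female controls (log2 fold change -0.16 ± 0.07 SE, limma-voom adjusted p 0.999). Ugcg had -0.12 ± 0.08 in males and -0.01 ± 0.08 in females, and Cers2, a ceramide synthase of myelin lipids, had 1239 to 1747 CPM in BPA males and 1267 to 1496 CPM in male controls. Among the 7 junctional and nectin relatives, 2 lay below 0 in males and 3 in females. Nectin1 had 136.3 to 197 CPM in BPA females and 163.2 to 220 CPM in female controls, and Nectin4 and Esam averaged 1.329 and 5.713 CPM over all libraries.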

How the data were processed

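RNA was sequenced in 16 libraries, 4 in each group of sex and exposure, grouped by their labels. The submitters' processing notes name the mm39 build and, as tools of the authors, DESeq2 1.16.1, HTSeq 0.6.1p1, STAR 2.5.3a and bcl2fastq 2.20.0.422. For each gene the authors deposited whole-number counts and 2 sets of normalized values. Dividing the counts by a single factor per library gives the first deposited set, with a largest relative deviation of 5.55e-10. These factors were read from the deposited values, and median-of-ratios factors differ from them by at most 6.18e-11 in relative terms. Per the labels the last set is divided by the median transcript length in kb. An automatic unit check cannot parse the table's header, so the units were recorded as other and described from the values alone. For that reason the quasi-likelihood test fixed as the first choice was replaced by limma-voom.

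The filter asked for about 10 counts in 4 libraries and 15 counts in total, and left 16339 genes holding 99.947% of all counts. TMM scaling was re-implemented in R 4.3.3, and CPM are counts scaled to a common library total with it. limma 3.58.1 (voom weights, robust empirical Bayes) fitted 1 coefficient per group over all 16 libraries. p-values were two-sided and adjusted by Benjamini-Hochberg over all genes with a threshold of 0.05. Since litters are not labelled, p-values reflect the spread between libraries only. A gene without counts could reach 3 counts, or 0.0707 to 0.127 CPM, by counting error alone. The script was tested on simulated data. Correlations used 100000 permutations within groups, of which the smallest possible p is 1e-05, in Python 3.11.15 with numpy 2.4.6. Symbols, exon lengths and 50-base transcript words came from GENCODE M21, in which 31717 of 32207 IDs have a symbol, and promoter windows from RefSeq.

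The 10 genes, the partner and marker lists and the tests were chosen with earlier results of these data known. The genes named were all 10, up to 3 partners per list with the smallest p for BPA over both sexes, and the 3 most similar genes of each. Epb41l2, Tnr, Lgi2, Cask, Magi1 and Nlgn2 fall under that rule. Alternatives were another scaling, other filters, limma-trend, a replicate block, and leaving out libraries. limma-trend, the counts of separate groups and the exon length were chosen after seeing the data.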

Additional observations from a re-analysis of the deposited data

Results flagged for a closer look

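In 44 groups of 4 libraries, the highest or lowest library was compared with its nearest neighbour by Dixon's ratio, and 5 stood apart at the 95% level, while chance gives about 1 in 20. Jam3 was at 339 CPM in male BPA 2, against 441.5 to 450 CPM in the other BPA males. Lgi3 was at 1100 CPM in the same library, against 1334 to 1373 CPM in the other BPA males. That library also had 6124 CPM over the astrocyte list and the lowest myelinating sum, 114500 CPM, and the part of either was not tested.

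Nfasc was at 7730 CPM in male control 1, against 8634 to 8687 CPM in the other male controls, and without it the log2 fold change in males was -0.30. Cadm2 was at 430 CPM in male control 3, against 378.9 to 383.8 CPM in the other male controls. Nrcam was at 104 CPM in female control 4, against 78.85 to 82.35 CPM in the other female controls.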

How the results depend on the processing

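No member was called in any comparison or in any of 1100 alternative values for 50 results. The counts over all genes were less stable. In males 1 gene was called, 2 without a filter on low counts, 2 with limma-trend, 0 without both male BPA 2 and female BPA 1, and 0 to 3 with 1 library left out. In females 0 genes were called (744 at an unadjusted limma-voom p under 0.05, and 0 by limma-trend), and 2 without a filter. Over both sexes 3 were called, 0 with a mean of at least 1 CPM, 0 with the replicate block, 0 without both libraries, and 0 to 5 with 1 left out. For the difference between the sexes 0 were called (772 at an unadjusted limma-voom p under 0.05, and 0 by limma-trend), and 0 to 3 with 1 left out. For females against males 9 were called, and 4 to 9 with 1 left out. There 13 were called without a filter, 10 with limma-trend and 8 with a mean of at least 1 CPM. Of 70 marker pairs 1 passed, 0 without the 2 farthest libraries and 18 with group means left in. The causes were not tested.

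Sign changes were found in 13 of the 50 member results, all near 0 or with a wide spread. Without both male BPA 2 and female BPA 1 the male log2 fold changes were 0.0716 for Cntn2, 0.0222 for Cadm4, 0.053 for Jam3 and 0.0443 for Lgi3. Jam3 over both sexes was then 0.0214, and the sex difference for Cntn2 was -0.0632. The sex difference for Jam3 was 0.00243 with median-of-ratios factors, 0.00996 without a filter, 5.56e-06 with the replicate block and 0.000514 with limma-trend. Over both sexes Nrcam was 0.022 without a filter and Cntn2 was -0.00569 with the replicate block. With 1 library left out, the male values ran from -0.169 to 0.0899 for Cntn2, -0.0399 to 0.0131 for Cadm4, -0.0776 to 0.044 for Jam3 and -0.0649 to 0.0352 for Lgi3. The female values ran from -0.122 to 0.254 for Cntn2, -0.216 to 0.0535 for Cadm1 and -0.149 to 0.0635 for Cadm2. Over both sexes they ran from -0.0786 to 0.109 for Cntn2 and -0.149 to 0.0716 for Nrcam, for the sex difference from -0.0861 to 0.289 for Cntn2 and -0.097 to 0.0329 for Jam3, and between control sexes from -0.0614 to 0.00588 for Cadm1. The median correlation of deviations from group means was 0.02 over 24 same-numbered pairs (-0.199 to 0.214) and -0.02 over 72 others (-0.375 to 0.373). The 24 pairs mix libraries of the same and of different exposure. They therefore cannot show whether same-numbered males and females of 1 exposure were littermates. The replicate block changed no member's call. A Wald test with negative binomial counts was planned and not run. Litter, strand setting and the O4 sort limit what these levels mean.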
